A study of Mus musculus with 8 samples.

Results

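The NF-kB subunit and inhibitor genes described here are Rel, Rela, Relb, Nfkb1, Nfkb2, Nfkbia, Nfkbiz and Tnfaip3, which are 8 of 21887 protein-coding mouse genes. Their DC-SCRIPT peaks were taken by position alone: a peak belongs to a gene when its centre lies inside it, or, if it lies in no protein-coding gene, when that gene is the nearest. By this rule 58 of 31473 peaks in conventional dendritic cells type 1 (cDC1) and 6 of 2776 in type 2 (cDC2) belonged to the 8 genes. The protein mapped was DC-SCRIPT, a zinc finger factor whose gene is Zfp366. The assay was CUT&Tag, in which an antibody directs a transposase so that DNA near the bound protein is tagged and sequenced. The cells were sorted from spleens of female C57BL/6 mice, zfp366+/+ (wild type) or zfp366-/- (knockout), in pools of mice. For cDC1 the wild type had 3 libraries and the knockout 2, and for cDC2 these numbers were 1 and 2. Neither the animals' age nor the deleted part of Zfp366 is stated in the labels. Values stood in 1 wild-type and 1 knockout tag set per subset, so no spread between mouse pools can be given and no test between genotypes was made. No RNA was measured, so neither the sorted subset nor the loss of Zfp366 could be checked against marker genes.

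NF-kB is a family of dimeric transcription factors that waits in the cytoplasm of resting cells and enters the nucleus when pattern recognition or cytokine receptors signal. Its subunits fall into those with a transactivation domain (c-Rel, p65 and RelB, encoded by Rel, Rela and Relb) and those made as precursors (p105/p50 from Nfkb1 and p100/p52 from Nfkb2). IkBα, from Nfkbia, holds dimers in the cytoplasm, IkBζ, from Nfkbiz, acts in the nucleus, and A20, from Tnfaip3, edits ubiquitin chains upstream of the kinases. In dendritic cells the family is known for its part in maturation and cytokine expression, and several of these genes are themselves NF-kB targets.

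In cDC1, 7 of the 8 genes had a peak, where the share over the annotation was 51.4% of protein-coding genes. In cDC2, 4 of 8 had one, where that share was 9.54%. These 4, Nfkb1, Nfkbia, Nfkbiz and Tnfaip3, had peaks in both subsets, as did 9.02% of protein-coding genes, and Rela had none in either. The 3 inhibitor genes carried 39 of the 58 cDC1 peaks and 5 of the 6 cDC2 peaks, and the 5 subunit genes carried 19 and 1. This split depends on the rule of assignment. When noncoding genes could also claim a peak, or only peaks within 10 kb counted, most cDC1 peaks belonged to subunit genes. In cDC2 the peak of Nfkb1 alone then remained. The 58 cDC1 peaks had a median of 17.2 normalised tags in the wild type and a median fold over knockout of 10.2. Over all cDC1 peaks these medians were 15.5 and 10.2. Where the knockout is at its lowest listed value, the fold has no upper limit, and the true fold can also be lower than the deposited one. With such peaks at the lower limit of their interval, and the others as deposited, the median folds were 7.16 and 7.43. As a set the peaks were thus close to the rest of the list. Normalised tags are tags in the 191 bp of a peak scaled to a set of 10000000, and the fold, like the score used for ranks, is the authors' own value. The counting interval beside a fold is its exact 95% interval, computed here from the tags of both sets. It covers counting error only.

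RefSeq (build GRCm38.p6) lists a transcription start with its sequence for 5 of the 8 genes: Rel, Rela, Nfkb2, Nfkbia and Tnfaip3. A cDC1 peak reached into the 250 bases before a start at 4 of them, and these stretches are shown because the genes' promoter peaks lie there. Rela, without a peak, is shown for comparison, with only the 151 bases that lie below its lower gene end. All are written 5′ to 3′ on the strand of the gene, and capitals mark every match, on either strand, to loose kB letters: GGG and CC with any 5 letters between (GG and CCC where the match is on the other strand), overlapping matches being run together.
Rel (minus strand, chr11:23770970-23771219): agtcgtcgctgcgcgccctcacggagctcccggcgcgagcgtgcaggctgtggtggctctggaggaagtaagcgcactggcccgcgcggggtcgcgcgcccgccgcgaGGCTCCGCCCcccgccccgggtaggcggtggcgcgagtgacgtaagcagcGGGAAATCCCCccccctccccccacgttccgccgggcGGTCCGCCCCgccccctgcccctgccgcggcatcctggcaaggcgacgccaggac
Nfkb2 (plus strand, chr19:46304487-46304736): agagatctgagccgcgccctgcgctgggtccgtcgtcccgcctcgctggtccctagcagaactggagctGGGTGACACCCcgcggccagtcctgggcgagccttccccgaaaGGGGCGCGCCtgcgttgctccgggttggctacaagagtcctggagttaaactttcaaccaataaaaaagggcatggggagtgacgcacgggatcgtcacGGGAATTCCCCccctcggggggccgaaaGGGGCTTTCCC
Nfkbia (minus strand, chr12:55492648-55492897): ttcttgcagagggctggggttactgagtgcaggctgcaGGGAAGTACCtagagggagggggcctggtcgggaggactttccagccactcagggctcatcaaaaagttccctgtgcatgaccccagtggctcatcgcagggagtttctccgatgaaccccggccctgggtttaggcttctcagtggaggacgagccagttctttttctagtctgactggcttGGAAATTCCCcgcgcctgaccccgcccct
Tnfaip3 (minus strand, chr10:19015411-19015660): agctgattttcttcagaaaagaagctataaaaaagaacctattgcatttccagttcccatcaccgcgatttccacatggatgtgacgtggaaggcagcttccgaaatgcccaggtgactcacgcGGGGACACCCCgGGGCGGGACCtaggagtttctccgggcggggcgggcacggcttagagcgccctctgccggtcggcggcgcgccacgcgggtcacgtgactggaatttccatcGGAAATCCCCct
Rela (plus strand, chr19:5637291-5637441): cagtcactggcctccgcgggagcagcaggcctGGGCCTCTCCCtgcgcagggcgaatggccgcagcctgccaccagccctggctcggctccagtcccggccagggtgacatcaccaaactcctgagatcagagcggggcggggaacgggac

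Such kB letters are common: 45.8% of the 32851 windows of 250 bases before a listed start held them. Within the part covered by the peak, the Nfkbia window held 1 match among its first 108 bases (GGGAAGTACC). That of Tnfaip3 held 1 among its last 78 (GGAAATCCCC, which begins 12 bases before the start), and that of Nfkb2 held 2 overlapping matches among its first 89. The first 80 bases of the Rel window, which its peak covered, held no kB match but held GAGGAAGT, letters bound by the ETS factor PU.1, which 2.44% of all windows contain. The shorter ETS letters GGAAGT, which lie inside the PU.1 letters of Rel, also lay in the covered part of Nfkbia, and 19.7% of windows hold them. Near the middle of the Tnfaip3 window, outside the peak, stood the AP-1 letters TGANTCA, present in 6.75% of windows. The IRF letters (GAAA, any 2 letters, GAAA; 2.98% of windows) and the ETS-IRF letters (GGAA, any 2 letters, GAAA; 2.30%) were in none of them. All these shares are for whole windows of 250 bases and not for the shorter parts that the peaks covered. The whole windows of Nfkb2, Nfkbia, Rel and Tnfaip3 held 7, 2, 4 and 4 kB matches, overlapping ones counted singly, most of them outside the peaks. A match is a run of letters and not a measured site.

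Among the subunits with a transactivation domain, Rel had peaks both at its start and within the gene. Rel lies on chromosome 11 from 23736847 to 23770969, and 5 cDC1 peaks belonged to it. The highest, at 23771140 to 23771330, was centred 266 bp before the listed start, with 44.4 normalised wild-type tags against 8.5 knockout tags. Its fold was 6.33 (counting interval 3.06 to 13.3). A second peak of nearly the same height lay 8.13 kb downstream of the start, inside the gene at 23762740 to 23762930. It held 41.7 normalised tags and 7 knockout tags, a fold of 7.25 (counting interval 3.45 to 18.4). The remaining 3 were weaker, at 16.9, 11.6 and 10.3 normalised tags, of which the latter 2 lay 38.2 kb and 7.88 kb before the start. All 5 folds stayed between 4.16 and 7.25, below the median of the whole list. No cDC2 peak belonged to Rel, and the nearest one lay 182.9 kb away, assigned to Papolg.

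Relb, whose product pairs with p52 in the non-canonical arm, had a single strong peak. It lay on chromosome 7 at 19628647 to 19628837, which is 696 bp inside the upper end of the gene (19606217 to 19629438). The wild-type signal of 72.3 normalised tags ranked 625 of the cDC1 list by score, but 17 knockout tags remained, and the fold was 5.16 (counting interval 3.15 to 8.98). Only 0.207% of all cDC1 peaks kept as many knockout tags, a share that depends on peak height. The 17 tags equal 14.0 normalised tags, and the median cDC1 peak held 15.5 normalised tags in the wild type. Under the authors' limit on the fold, a peak of that median height could not be listed with so many knockout tags. Peaks of similar height were not compared. In cDC2 the nearest listed peak was 38.1 kb away, assigned to Clptm1.

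Rela, which encodes p65, was the exception. No peak lay inside the gene, on chromosome 19 from 5637442 to 5648134, nor in the gaps of 25.9 kb to Kat5 and 3.05 kb to Sipa1 on its sides. The nearest listed peak stood inside Kat5, an acetyltransferase gene, 27.3 kb below Rela, and was present in both subsets. It held 57.0 normalised wild-type tags in cDC1 (5610063 to 5610253) and 56.5 in cDC2 (5610078 to 5610268), with folds of 6.58 and 5.94. A gene without a listed peak is not shown to be unbound, because peaks with less than a fold of 4 over knockout were removed by the authors. The authors' filter against the knockout, by fold and Poisson p-value together, took 64.5% of all putative peaks in cDC1 and 79.3% in cDC2.

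The precursor subunit genes differed from each other. Nfkb1 spans 107.3 kb of chromosome 3, from 135584655 to 135691969, and had 12 cDC1 peaks, a number reached by 1.25% of protein-coding genes. Of these, 8 lay inside the gene, 1 lay 5.43 kb below it and 3 above it, and the signals ran from 5.36 to 33.6 normalised tags. The highest, at 135720036 to 135720226, was centred 28.2 kb above the upper end, with 2.5 knockout tags and a fold of 16.3 (counting interval 4.53 to 66.7). The peak closest to an end of the gene, at 135691432 to 135691622 and 442 bp inside the upper end, reached 20.6 normalised tags and a fold of 10.1 (counting interval 2.78 to 41.8). Among the 8 peaks inside the gene no single site dominated, as they lay between 11.7 and 25.8 normalised tags. Below Nfkb1, at 135579128 to 135579318, a peak of 16.1 normalised tags had the knockout at its lowest listed value of 0.5 tag, which also stands for none. Its fold was at least 5.12 by the lower end of the counting interval.

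Nfkb2, in contrast, had 1 peak, and a high one. It lay at 46304385 to 46304575 of chromosome 19, inside the annotated span of the gene (46300994 to 46312400) and 257 bp before the first of 3 listed starts. The signal of 71.9 normalised tags was close to that of Relb, its partner's gene, and 21.5 knockout tags remained, the most of all 58 peaks. Its fold of 4.05 (counting interval 2.56 to 6.44) lay just above the authors' limit of 4. The noncoding gene 4833438C02Rik also contains this peak. The nearest cDC2 peak was 17.7 kb above the gene.

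**Figure D1:**
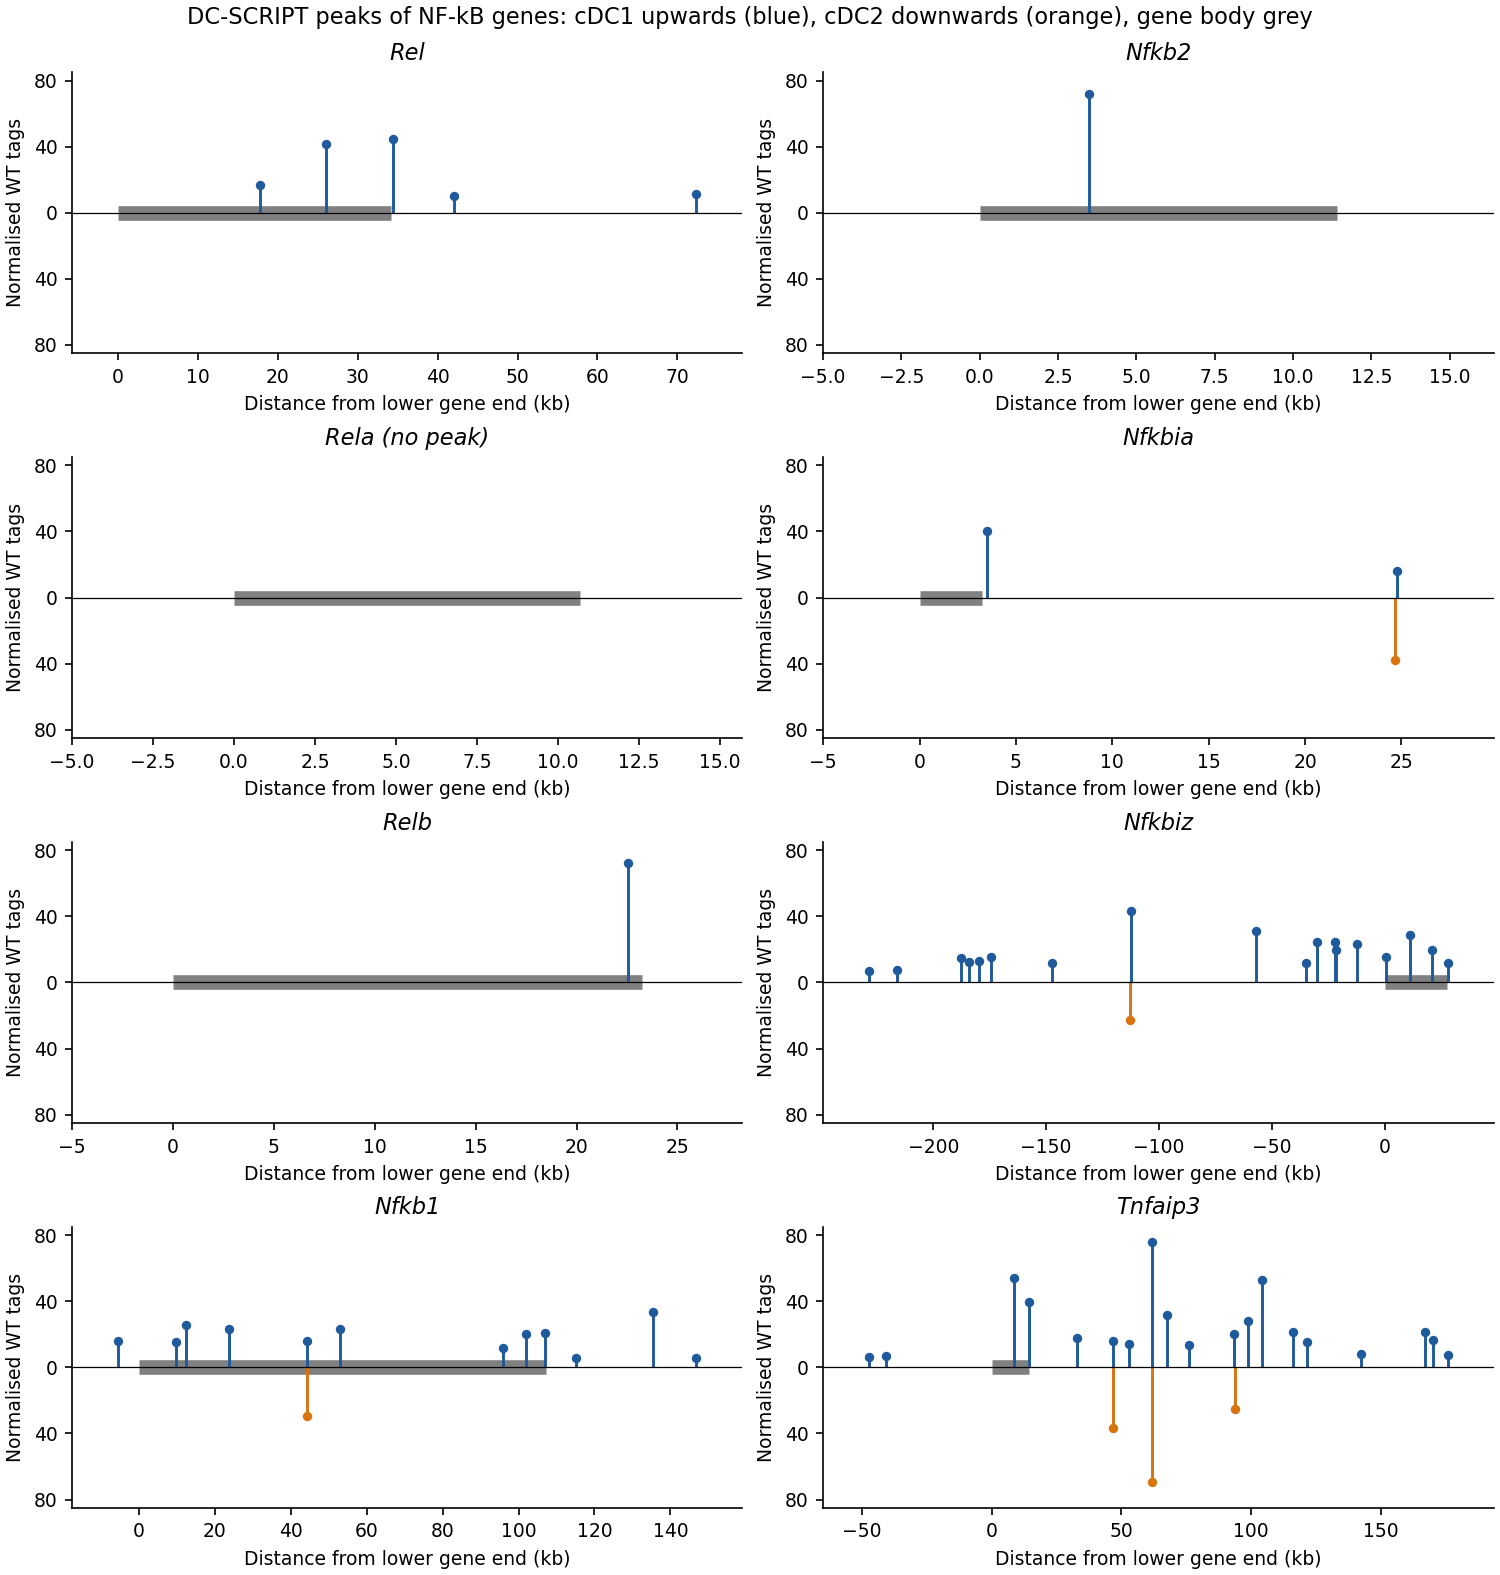
Normalised wild-type tags of each peak (vertical axis, tags per 10000000; cDC1 upwards in blue, cDC2 downwards in orange) against distance of its centre from the lower gene end in kb, in 1 panel per gene with the gene body in grey. Relb and Nfkb2 have 1 tall cDC1 peak each, Nfkbiz and Tnfaip3 have 18 and 19 that extend far from the gene, and Rela has none.

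The classical inhibitor gene Nfkbia is short, 3.24 kb on chromosome 12 (55489409 to 55492647), and had 2 cDC1 peaks that differed in kind. The first, at 55492790 to 55492980, was centred 238 bp before the start and held 40.6 normalised tags with 8 knockout tags, a fold of 6.17 (counting interval 3.04 to 14.5). The second, at 55514103 to 55514293 and 21.6 kb before the start, held 15.8 normalised tags with the knockout at its lowest value. Its fold was at least 5.02 by the same limit. In cDC2 only the distal region was listed, at 55513976 to 55514166, with 37.7 normalised tags and a fold of 4.29 (counting interval 1.63 to 13.2).

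Nfkbiz, on chromosome 16 from 55811375 to 55838954, had 18 cDC1 peaks, a number reached by 0.302% of protein-coding genes. Of these, 14 lay below the gene, from 12.3 kb to 228.2 kb away, in a gap of 489.4 kb that separates it from Zpld1. The highest, at 55698715 to 55698905 and 112.6 kb below the lower end, held 43.0 normalised tags with 2.5 knockout tags, a fold of 21.0 (counting interval 5.90 to 86.1). Next in height came the peak at 55754422 to 55754612, 56.9 kb below, with 31.3 normalised tags and a fold of 6.32 (counting interval 2.82 to 17.6). The 14 peaks below the gene had a median of 1 knockout tag, and 5 of them had the knockout at its lowest value. Their median fold was 17.8 as deposited and 6.96 with those 5 at the lower end of their counting interval. The folds of the 3 peaks inside ran from 4.22 to 7.13, of which the one at 55812012 to 55812202, 0.732 kb above the lower end, held 15.6 normalised tags and a fold of 4.22 (counting interval 1.55 to 12.3). The peak 178 bp above the upper end, at 55839037 to 55839227, held 11.8 normalised tags and a fold of 4.79 (counting interval 1.53 to 24.2). It lies in the 0.999 kb between Nfkbiz and Nxpe3.

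Tnfaip3, the gene of A20, had the most peaks by the rule of assignment used here, beside 18 at Nfkbiz, and the highest one as listed. It lies on chromosome 10 from 19000910 to 19015410, on the minus strand, and 19 cDC1 peaks belonged to it. The highest, at 19062427 to 19062617 and 47.1 kb before the start, held 75.7 normalised wild-type tags against 4.5 knockout tags, a fold of 20.4 (counting interval 7.79 to 57.1), and ranked 291 in the cDC1 list by score. Another distal peak, at 19105045 to 19105235 and 89.7 kb before the start, held 52.9 normalised tags with 1.5 knockout tags, and its fold of 42.8 (counting interval 8.78 to 267.5) was the highest as deposited, although the 12 peaks with the knockout at its lowest value have no upper limit and cannot be ranked against it. In all, 15 peaks stood before the start, from 18.3 kb to 161.1 kb, in the gap of 341.1 kb towards Olig3, and 2 weak ones beyond the other end, at 6.48 and 6.77 normalised tags.

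At its start Tnfaip3 had a peak as high as those of Rel and Nfkbia, with fewer knockout tags. Centred 17 bp after the listed start, at 19015298 to 19015488, it held 39.5 normalised tags, close to the 40.6 of Nfkbia and the 44.4 of Rel. Only 2 knockout tags remained there, against 8 and 8.5, and its fold was 24.1 (counting interval 6.55 to 201.1). The intervals of the 3 folds overlap, so with tags this few the difference in fold is not resolved. A further peak inside Tnfaip3 (19009464 to 19009654), 2.40 kb from the nearest listed start, had 54.0 normalised tags, 6.5 knockout tags and a fold of 10.2 (counting interval 4.49 to 23.8).

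Assignment by the nearest protein-coding gene bears on these counts. When noncoding genes could also claim a peak, 5 cDC1 peaks remained with Tnfaip3 and 5 with Nfkbiz. Within 10 kb of the gene there were 2 and 4. Nfkb1 kept 12 and 10 under these rules, so Nfkb1 and not Tnfaip3 then had the most peaks of the members. Per 100 kb of chromosome nearest to the gene, the number of cDC1 peaks was 7.39 at Tnfaip3, 6.80 at Nfkb1, 6.60 at Nfkbiz, 6.20 at Rel, 5.36 at Nfkb2, 3.98 at Relb and 2.67 at Nfkbia, where all cDC1 peaks over all chromosomes gave 1.17. A gene with a peak and a short stretch of its own exceeds that rate by construction: the values of Relb and Nfkb2 rest on 1 peak in 25.1 and 18.6 kb, and that of Nfkbia on 2 peaks.

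**Figure D2:**
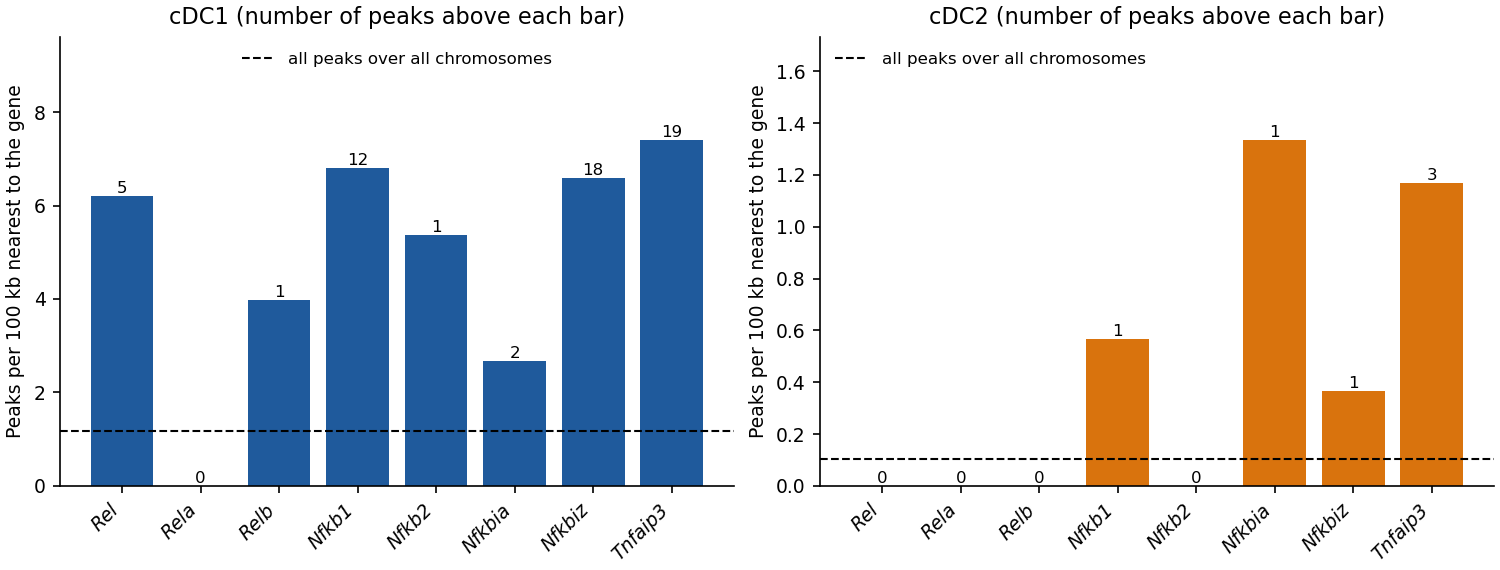
Peaks per 100 kb of chromosome nearest to each gene (bars, from 0) in cDC1 and cDC2, with the number of peaks above each bar and the rate of all peaks as a dashed line. The lines stand at 1.17 in cDC1 and 0.103 in cDC2, and a single peak in a stretch of this length is enough to pass the cDC2 line. Tnfaip3, Nfkb1, Nfkbiz and Rel have the highest cDC1 rates, from 6.20 to 7.39.

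The median number of knockout tags was higher near gene ends than far from genes among these peaks. The 7 peaks with a centre less than 1 kb from an end of a gene, 12.1% of the members' peaks beside 20.8% of all, had medians of 39.5 normalised tags in the wild type, of 4.5 knockout tags and of 6.17 for the fold. The 35 peaks over 10 kb from any gene had medians of 15.8 normalised tags and 1.5 knockout tags, and 11 of them had the knockout at its lowest value. Their median fold was 15.7 as deposited and 8.20 with those 11 at the lower end of their counting interval. Over all cDC1 peaks the median was 3.0 knockout tags within 1 kb of a gene end and 1.5 far from genes. The median folds there were 8.03 and 11.8 as deposited, and 7.04 and 7.61 with peaks at the lowest knockout value at their lower limit. Of the members' peaks 60.3% were of the far kind, beside 24.6% of all, with 14 at Nfkbiz and 17 at Tnfaip3, so position and gene cannot be told apart. At Tnfaip3 the start peak had 2 knockout tags, as many as the median of the 15 peaks before the start. The 2 peaks inside the gene, of which it is 1, had a median of 4.25. Their folds were 10.2 and 24.1, with a median of 17.1. The median fold of those 15 was 10.9 as deposited and 8.66 with the 3 at the lowest knockout value at their lower limit. Peaks inside a gene made up 29.3%, beside 56.0% of all. With a fold of at least 8 required, 37 of the 58 peaks were left, beside 63.9% of all cDC1 peaks, and these belonged to Tnfaip3 with 17, Nfkbiz with 11, Nfkb1 with 8 and Nfkbia with 1. They include all 12 peaks with the knockout at its lowest value. Rel, Relb and Nfkb2 then had none. What the tags that remain in the knockout stem from was not tested.

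**Figure D3:**
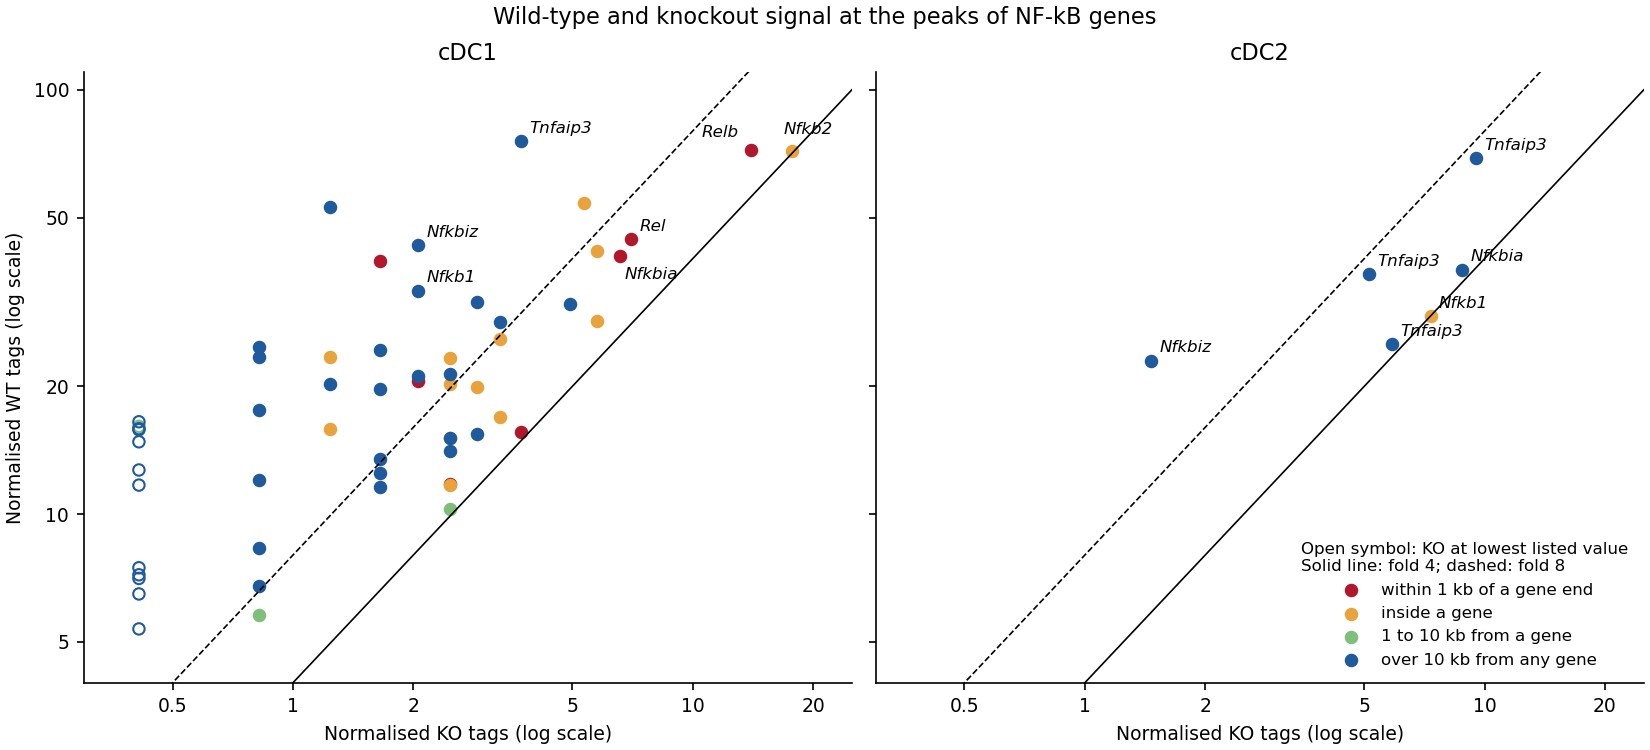
Normalised wild-type tags against normalised knockout tags (both log axes, tags per 10000000) for every peak of the 8 genes, coloured by position, with lines at folds of 4 and 8; open symbols have the knockout at its lowest listed value. Relb and Nfkb2 combine high wild-type with the highest knockout signal at the right, while the highest distal peaks of Tnfaip3 and Nfkbiz in cDC1 lie above the dashed line.

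In cDC2, peaks belonged to Tnfaip3 (3), Nfkbia (1), Nfkbiz (1) and Nfkb1 (1), and none of the 6 lay within 1 kb of a gene end, where 16.8% of all cDC2 peaks lay. The peak of Nfkb1 was inside the gene, as were 50.1% of all, and the other 5 were over 10 kb from any gene, as were 28.4%. Only the peak of Nfkbiz had a fold of at least 8, which 45.5% of all cDC2 peaks had. A cDC1 peak overlapped 5 of the 6 (1 bp or more sufficed), beside 63.7% of all cDC2 peaks, and the other lay 296 bp from one. Those 5 are also 5 of the 58 cDC1 peaks, beside 5.61% of all. The distance between the centres varied. The strongest Tnfaip3 region, 47.1 kb before the start, had centres 1 bp apart in the subsets, so that the windows shared 190 bp. That inside Nfkb1 had them 92 bp apart and that of Nfkbia 127 bp, with 99 and 64 bp shared. At the Tnfaip3 region 32.3 kb before the start and at Nfkbiz the centres lay 178 and 182 bp apart and the windows shared 13 and 9 bp. Signals below therefore compare the listed windows and, but for the first region, not the same bases. When 50% of a peak had to overlap, 2 of them remained shared. When only peaks within 10 kb counted, or when noncoding genes could claim a peak, the peak of Nfkb1 alone remained of the 6.

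The strongest Tnfaip3 region was nearly equal in height in the subsets. It held 69.1 normalised wild-type tags in cDC2 (exact Poisson 95% interval 47.6 to 97.1) and 75.7 in cDC1 (67.0 to 85.5), and ranked 41 in the cDC2 list. Its fold in cDC2, 7.26 (counting interval 2.93 to 18.1), was below the 20.4 of cDC1, with intervals that overlap and 9.52 normalised knockout tags against 3.71. Nfkbiz gave 23.0 normalised tags in cDC2 (11.5 to 41.2) and 43.0 in cDC1 (36.8 to 50.8), intervals that overlap, and had the highest cDC2 fold, 15.7 (counting interval 2.29 to 676.9). That fold rests on 11 wild-type tags and 1 knockout tag.

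The other 4 regions had higher values in cDC2, in part within counting error. The distal Nfkbia region held 37.7 normalised tags (22.3 to 59.6) against 15.8 in cDC1 (11.9 to 20.5), a ratio of 2.39 that only 3.34% of the 1767 overlapping pairs of peaks reached. The Tnfaip3 region 32.3 kb before the start gave 36.7 (22.3 to 59.6) against 15.9 (11.9 to 20.5), a ratio of 2.31 reached by 3.74% of pairs. At both, the Poisson intervals of the subsets do not overlap (22.3 is above 20.5). The region inside Nfkb1 gave 29.3 (16.0 to 49.2) against 15.9 (11.9 to 20.5), and the Tnfaip3 region 79.2 kb before the start 25.1 (13.0 to 43.9) against 20.3 (15.9 to 25.6), and there the intervals do overlap. The median ratio over all pairs was 0.919, with quartiles of 0.652 and 1.26. These 4 regions also had more knockout signal in cDC2, from 5.13 to 8.79 normalised tags against 0.412 to 1.24 in cDC1, and its part in the ratios was not tested. The lowest peak in the cDC2 list has 12.6 normalised tags. As 1 wild-type pool stands behind that list, these are differences between tag sets and not between groups of mice.

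**Figure D4:**
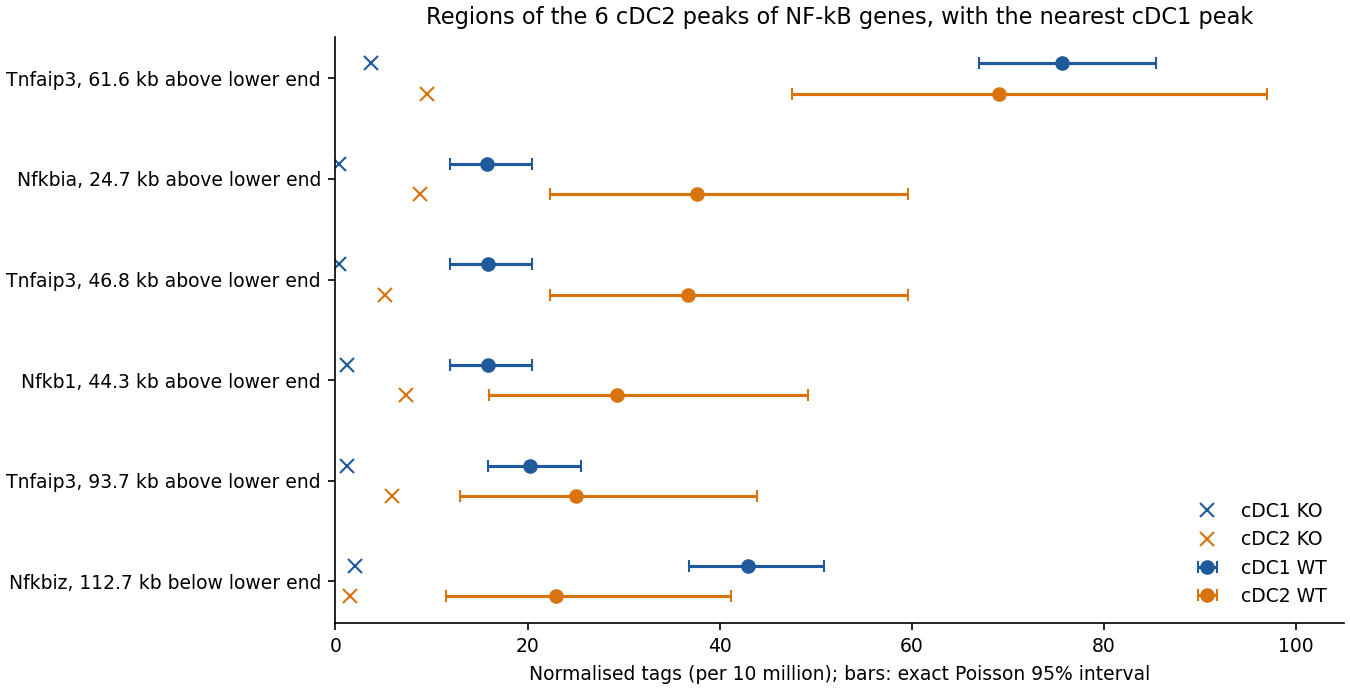
Normalised wild-type tags (points, with exact Poisson 95% intervals) and knockout tags (crosses) at the 6 cDC2 peaks and the nearest cDC1 peak of each, in tags per 10000000, with cDC1 in blue and cDC2 in orange. The Tnfaip3 region 61.6 kb above the lower gene end is high in both subsets, while the Nfkbia region and the Tnfaip3 region at 46.8 kb have higher wild-type and knockout values in cDC2.

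The cDC1 peaks at or near the starts of Rel, Nfkb2, Nfkbia and Tnfaip3, and that near the upper end of Relb, had no counterpart in the cDC2 list. The wild-type tag set behind that list is smaller (4.77 M tags against 35.5 M). Scaled to that depth, these peaks would hold 21.2, 34.3, 19.4, 18.9 and 34.5 wild-type tags, in that order. The lowest listed cDC2 peak holds 6, but the number of wild-type tags alone did not decide listing. A peak also had to reach a fold of 4 and a Poisson p-value of at most 0.0001 over knockout. In cDC2 this filter took 79.3% of all putative peaks. Neither the part of depth nor that of this filter in the missing counterparts was tested. Nor was a difference between subsets at these sites.

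The surrounding pathway was described with 38 further genes, chosen by role. Of these, 32 had a cDC1 peak and 6 a cDC2 peak, 84.2% and 15.8%, beside the 51.4% and 9.54% of all protein-coding genes given above. By role, peaks in cDC1 were found at all 8 further inhibitors, 13 of 15 adaptors and ubiquitin ligases, 6 of 7 kinases, 3 of 4 IkB relatives and 2 of 4 receptors. Nfkbid, Ikbkg, Ripk1, Rnf31, Ltbr and Tnfrsf13c had none. Ikbkg encodes the scaffold of the IkB kinase complex, and Ltbr the lymphotoxin receptor upstream of RelB.

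The highest-scoring cDC1 peaks of the pathway were those of Malt1, Nfkbie, Birc3, Tab2, Traf1 and Map3k14. Nfkbie, which encodes IkBε, held 60.1 normalised tags 0.918 kb outside the gene, with 12.5 knockout tags, a fold of 5.84 (counting interval 3.21 to 10.7). Malt1, the paracaspase that cleaves A20, held 59.2 tags 0.253 kb outside its gene, with a fold of 7.83 (counting interval 3.96 to 15.7). Birc3, a ubiquitin ligase, held 59.8 tags 0.156 kb inside a gene end, with a fold of 13.2 (counting interval 5.46 to 33.3). Map3k14 encodes NIK, the kinase of the non-canonical arm, and its highest peak, 9.16 kb inside the gene, held 55.7 tags with a fold of 13.5 (counting interval 5.68 to 42.0). Traf1, an adaptor of TNF receptors, reached 52.9 tags and a fold of 25.6 (counting interval 7.18 to 104.3), and Tab2, an adaptor of the kinase TAK1, 50.9 tags 65.2 kb from the gene and a fold of 25.2 (counting interval 7.07 to 102.7). The peaks of Nfkbie, Malt1 and Birc3 lay within 1 kb of a gene end and had the 3 lowest folds of the 6. However, the intervals of Birc3 and Map3k14 are nearly the same, so their order is not resolved. Position and fold were not compared over the rest of the pathway list.

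In cDC2, the pathway genes with a peak included Nfkbie, Ikbkb, Malt1, Tnip3 and Tnip2. Nfkbie stood highest of these, with 54.5 normalised tags 0.228 kb outside the gene and a fold of 5.72 (counting interval 2.24 to 14.5), and overlapped a cDC1 peak. Ikbkb, which encodes the kinase IKKβ, held 23.0 tags 0.787 kb from its gene with a fold of 7.86 (counting interval 1.72 to 73.0), and no cDC1 peak overlapped it. Tnip3, whose product binds A20, had 3 cDC2 peaks, a number reached by 0.736% of protein-coding genes and shared with Tnfaip3. The highest-scoring of them held 25.1 tags with a fold of 17.2 (counting interval 2.54 to 733.3). Malt1 and Tnip2 reached 27.2 and 18.8 tags.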

How the data were processed

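Titles gave the subset and genotype of each CUT&Tag library. The authors deposited 1 peak table per subset, made with HOMER findPeaks in factor style on 1 wild-type and 1 knockout tag directory, per the file headers, at a false discovery rate of 0.001, a fold of at least 4 and a Poisson p-value of at most 0.0001 over knockout and over the local 10 kb. Neither the aligner nor the libraries that entered a directory are stated in the labels or headers. The submitters' processing notes name builds GRCm38 and mm10.

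The deposited signal is wild-type tags per 10000000, and the deposited score and fold ratio are HOMER's. The wild-type sets held 35.5 M and 4.77 M tags, per the file headers; the knockout sets, 12.1 M and 6.83 M tags, were worked out from the scaling between columns. So 3 knockout tags equal 2.47 normalised tags in cDC1 and 4.40 in cDC2.

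Peaks were assigned with a RefSeq gene table (GRCm38.p6), in which all 8 members and 38 pathway genes matched by symbol. Strand and starts came from RefSeq promoter windows for 5 members. Fold intervals are exact (Clopper-Pearson, 95%) given the sum of tags rounded to whole numbers; a knockout at 0.5 tag was taken as 0. Python 3.11.15 with scipy 1.17.1 was used, and the functions were tested on simulated data. The headers give at most 1 tag per position, and the intervals treat tags as independent and cover counting error only. Members, lists and alternatives were chosen with earlier results of these data known. All members are named; per member the highest-scoring peak and every peak within 1 kb of a gene end are given in full, and of the pathway list up to 6 genes per subset with the highest-scoring peaks, of which 1 is not reported here. No genome was used here, so sequences under distal peaks are not shown.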

Additional observations from a re-analysis of the deposited data

How the results depend on the processing

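The 58 cDC1 peaks became 37 with only the higher-scoring 50% of peaks, 37 with a fold of at least 8, 23 within 10 kb of a gene and 29 when noncoding genes could claim a peak. The 7 genes with a cDC1 peak became 4 with a fold of at least 8, and stayed 7 under the other alternatives. The 6 cDC2 peaks and the 4 genes that carried them became 1 peak and 1 gene with a fold of at least 8 (Nfkbiz), within 10 kb (Nfkb1), and with noncoding genes (Nfkb1). Pathway genes with a cDC2 peak fell from 6 to 3 with the higher-scoring peaks. The 5 shared regions, counted in either subset, became 2 when 50% of a peak had to overlap and 6 with centres within 1 kb. Each of these rules removes or adds peaks by its own construction. The remaining alternatives stayed within 1.5 times the reported count, among them nearest gene end in place of the containing gene. Another was cDC1 scaled to the cDC2 depth, where 43 peaks at 7 genes would hold at least 6 wild-type tags. There only wild-type tags were scaled, and the limits over knockout were not applied again. The 43 are therefore not a count of peaks that would be listed at that depth. No paired analysis was possible because each table holds 1 tag set per genotype and no column per library; for the same reason no library could be left out. Knockout tags were few, so most folds are known only within wide limits.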
